A study of Mus musculus with 14 samples.

Results

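The genes described here are 40 genes of the endoplasmic reticulum (ER) folding machinery and the unfolded protein response. Their list, of stress sensors, chaperones, disulfide isomerases, ER-associated degradation genes and translocation genes, was chosen by name with earlier results of these data known. They are 40 of the 41739 genes in the deposited table of TPM values, which give transcripts per 1000000 after scaling for gene length, and all 40 passed the filter on low values that left 18724 genes for testing. RNA came from microglia, macrophages that live in the brain, purified there with magnetic beads (MACS). KO mice were Rheb F/F with Tmem119-cre ER, a tamoxifen-activated Cre recombinase driven by the microglial gene Tmem119, and WT mice were Rheb F/F without Cre. Rheb encodes a small GTPase that switches on the growth kinase complex mTORC1. All mice therefore carried floxed Rheb and received tamoxifen, and only KO mice carried Cre and its Tmem119 allele. At 8 weeks of age they were injected once a day for 4 days with LPS, the bacterial endotoxin, at 1.0 mg/kg, or with PBS. The 14 libraries were 4 of KO with LPS, 4 of WT with LPS, 3 of KO with PBS and 3 of WT with PBS.

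Secreted and membrane proteins fold in the ER, where the HSP70 chaperone BiP, encoded by Hspa5, binds unfolded chains. When unfolded proteins accumulate, IRE1 (Ern1) splices the mRNA of the transcription factor XBP1, PERK (Eif2ak3) phosphorylates the translation factor eIF2alpha and so favours translation of ATF4, and ATF6 is cut in the Golgi to release a transcription factor. ATF6 and XBP1 then raise the transcription of chaperones, isomerases and degradation genes, in part through ER stress response elements in the promoters, where the factor NF-Y binds the CCAAT box. In macrophages this machinery also serves the production of cytokines and surface receptors. Gene-level TPM cannot separate the spliced from the unspliced Xbp1 mRNA, and it does not report phosphorylation or cleavage of the sensors.

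KO_LPS_4 was the shallowest library, with 8.00 M reads recovered from the values (M, 1000000), and WT_LPS_1 the deepest, with 32.3 M. Rheb itself averaged 18.2 ± 1.43 TPM in KO and 32.1 ± 2.39 TPM in WT under PBS (SD, n = 3 each), with an adjusted p of 0.0163 by limma. Under LPS it averaged 22.7 ± 2.43 TPM in KO and 30.8 ± 3.83 TPM in WT (n = 4 each), with an adjusted p of 0.11. All 7 microglial markers were detected in every library. The design text names female mice, yet the Y-linked gene Ddx3y did not exceed 0.270 TPM in LPS libraries and lay at 111 to 146 TPM in PBS libraries, and Xist, which marks female cells, lay at 255 to 574 TPM in LPS libraries and did not exceed 0.147 TPM in PBS libraries. Sex and treatment thus cannot be told apart, while each KO to WT comparison lies within 1 sex. The short RNA feature Gm23935 took 4.04% to 15.4% of the TPM total in LPS libraries, against 0.0566% to 0.248% in PBS libraries, so a difference in preparation cannot be told apart from treatment either. The pituitary transcript Gh, for growth hormone, stood at 19672 TPM in KO_LPS_3 and at 78126 TPM in WT_PBS_914.

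Promoter windows were searched for exact matches to the DNA elements of this response. The sequences are printed so that they can be read beside the expression values. RefSeq windows from 250 bases before to 50 bases after the start, on GRCm38.p6, were matched for 33 of the 40 genes, and Atf6, Hyou1, Sil1, Manf, Derl1, Sec61a1 and Ssr2 had none. Both strands were searched for the ER stress response element ERSE, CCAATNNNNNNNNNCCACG, for its shorter form ERSE-II, ATTGGNCCACG, and for the unfolded protein response element UPRE, TGACGTGG. ERSE was found in 10 of the 33 genes (30.3%), against 37 of the 27025 genes with a window (0.137%), or 39 of 32851 windows (0.119%). Only exact spellings within the window were counted, so a gene without a match may still carry such an element. No base was shared between matches of different motifs. The 11 ERSE matches are given 5′ to 3′ on the gene's own strand, with 5 flanking bases on each side and the conserved letters in capitals. A match in reverse reads CGTGG first and ATTGG last.
Hspa5, BiP, chr2:34772020-34772048, plus strand: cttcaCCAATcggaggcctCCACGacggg
Dnajc3, a BiP co-chaperone, chr14:118937822-118937850, plus strand: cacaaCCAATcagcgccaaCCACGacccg
Hsp90b1, upstream match, chr10:86705633-86705661, minus strand: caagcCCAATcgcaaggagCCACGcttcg
Hsp90b1, match nearer the start, chr10:86705528-86705556, minus strand: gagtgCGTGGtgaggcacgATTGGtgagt
Calr, calreticulin, chr8:84847070-84847098, minus strand: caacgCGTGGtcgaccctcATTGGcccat
Canx, calnexin, chr11:50325795-50325823, minus strand: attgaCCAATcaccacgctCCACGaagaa
Pdia6, a disulfide isomerase, chr12:17266486-17266514, plus strand: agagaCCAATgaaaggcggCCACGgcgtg
Creld2, an isomerase-like protein, chr15:88819515-88819543, plus strand: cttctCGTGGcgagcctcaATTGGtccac
Ero1lb, an ER oxidase, chr13:12565677-12565705, plus strand: ggcctCGTGGtcccgcctcATTGGccgcc
Syvn1, a degradation ligase, chr19:6046527-6046555, plus strand: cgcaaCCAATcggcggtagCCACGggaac
Derl3, a degradation factor, chr10:75893237-75893265, plus strand: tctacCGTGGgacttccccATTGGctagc

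The matches lay between 212 and 26 bases before the annotated start. Herpud1 and Dnajb11 held ERSE-II, which was found in 12 of 32851 windows (0.0365%), and Txndc5 and Txndc11 held UPRE, found in 222 windows (0.676%). The Herpud1 element and the Txndc11 element, shown because these genes are described below, read as follows. Each is a match of letters and was not tested as a binding site.
Herpud1, ERSE-II, chr8:94386372-94386392, plus strand: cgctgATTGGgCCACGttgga
Txndc11, UPRE, chr16:11134622-11134639, minus strand: gtggcTGACGTGGagagt
The 250 bases before the start of Canx (chr11:50325674-50325923, minus strand) and of Syvn1 (chr19:6046326-6046575, plus strand) give the setting of 1 match each, in windows with 0 annotated exon bases.
Canx: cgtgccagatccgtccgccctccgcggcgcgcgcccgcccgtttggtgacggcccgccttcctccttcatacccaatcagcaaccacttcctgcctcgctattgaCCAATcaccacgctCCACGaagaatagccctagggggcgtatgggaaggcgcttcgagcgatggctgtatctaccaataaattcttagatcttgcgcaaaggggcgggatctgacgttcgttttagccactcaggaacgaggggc
Syvn1: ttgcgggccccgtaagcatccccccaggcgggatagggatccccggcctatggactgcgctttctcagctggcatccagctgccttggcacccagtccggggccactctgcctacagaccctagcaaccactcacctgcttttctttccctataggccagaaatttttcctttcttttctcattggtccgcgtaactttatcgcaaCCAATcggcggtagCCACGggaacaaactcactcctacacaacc

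Over the 14 libraries the mean TPM of the 40 genes ran between 3.19 for Derl3 and 1231 for Calr. Calr, Hsp90b1 (1077 TPM), Hspa5 (1030.3 TPM) and Pdia3 (855 TPM) had the highest means of the set, and Wfs1 (12.2 TPM), an ER membrane protein, and Derl3 the lowest. TPM is scaled by gene length, so these levels can be set side by side between genes, though only roughly. The lengths that fit the values join all annotated exons of a gene, whichever are used.

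**Figure D1:**
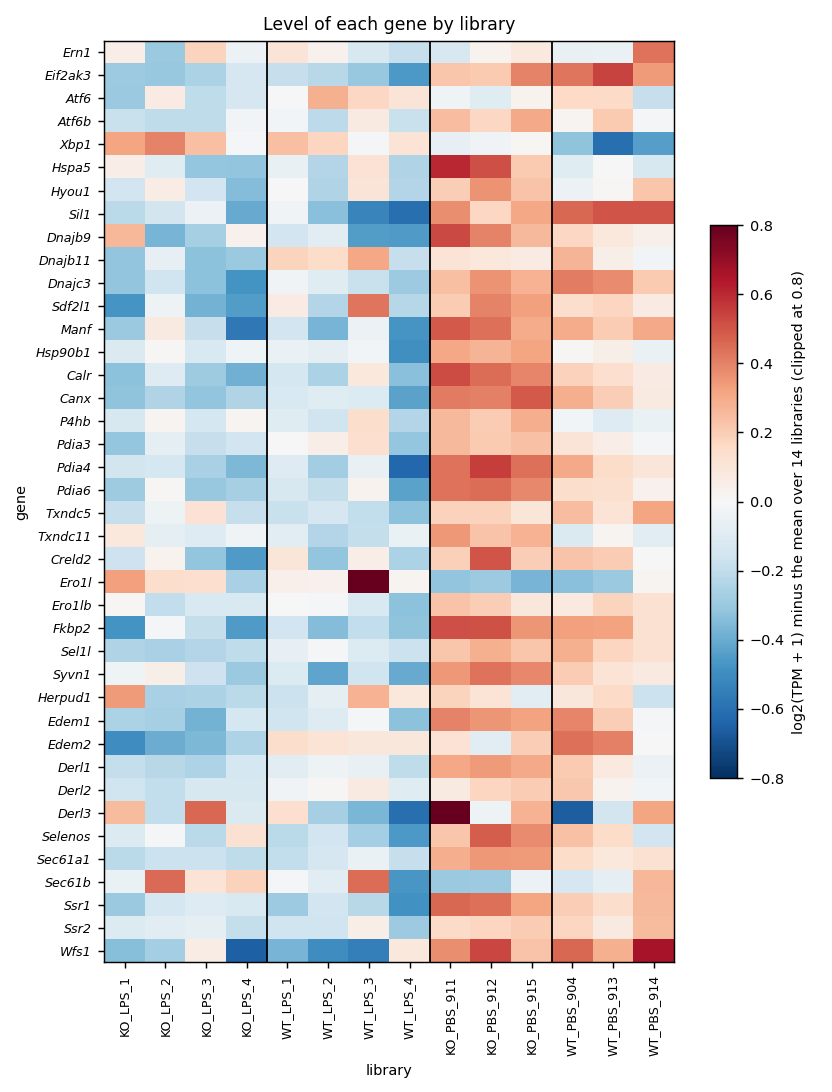
Level of each of the 40 genes (rows) in each library (columns, in groups KO LPS, WT LPS, KO PBS and WT PBS), as log2(TPM + 1) minus the gene's mean over 14 libraries, with colours clipped at 0.8. The 3 KO PBS libraries are the reddest block across the chaperone and isomerase rows. Xbp1 is also higher in KO PBS than in WT PBS libraries, where its values are lowest, but its highest values are in LPS libraries.

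Under PBS none of the 40 genes passed the test between KO and WT libraries. The log2 difference was positive for all 3 genes of GRP94 and the lectin chaperones, for 8 of the 10 isomerase and oxidase genes and for 5 of the 8 genes of BiP and its helpers. BiP was 0.52 higher on the log2 scale, Xbp1 0.43, and calreticulin, calnexin, GRP94 and several disulfide isomerases 0.25 to 0.33. With limma, 0 of 40 genes were called at an adjusted p under 0.05, where 0.796% of the 18724 genes tested were called higher and 0.224% lower in KO, and voom on recovered reads also called 0. At an unadjusted p under 0.05, 14 of 40 were higher and 0 lower in KO, against 9.55% and 6.13% of all genes tested and 19.9% and 5.15% of the 3417 genes that averaged 50 TPM or more, a class that holds 30 of the 40. All 3 KO libraries lay above all 3 WT libraries for 17 of 40 genes and below them for 1, against 14.9% and 10.9% of all genes and 30.4% and 8.34% of that class. The log2 difference was positive for 29 of 40 genes, against 49.1% of all genes and 63.4% of that class. Its median was 0.18 over the 40 genes and -0.0024 over all genes tested, and 0.071 over the genes that averaged 50 TPM or more. In RNA of purified cells, fewer cells of a type and less RNA per cell cannot be told apart.

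Among the sensors and their transcription factors, Xbp1 alone had KO libraries all above WT libraries. Xbp1 encodes the factor that IRE1 splicing activates. It stood at 223, 228 and 234 TPM in KO PBS libraries and 186, 153 and 172 TPM in WT PBS libraries, means 228 ± 5.89 and 170.0 ± 16.4 (SD, n = 3 each). The log2 difference was 0.43 (SE 0.11, 95% interval 0.20 to 0.66) with an adjusted p of 0.0752 by limma, the smallest among the 40 genes. The mRNAs of the sensors themselves overlapped between the genotypes. Ern1, which encodes IRE1, stood at 22.5, 25.1 and 26.1 TPM in KO and 23.6, 23.7 and 33.6 TPM in WT libraries, with a log2 difference of -0.11 (95% interval -0.44 to 0.21). Eif2ak3, which encodes PERK, stood at 36.9, 36.6 and 41.7 TPM in KO and 42.6, 46.3 and 40.2 TPM in WT libraries, with a difference of -0.16 (-0.36 to 0.046). In both genes the ranges of the genotypes crossed. Atf6 stood at 51.5, 49.3 and 54.0 TPM in KO and 59.3, 58.8 and 46.3 TPM in WT libraries, with a difference of -0.077 (-0.33 to 0.17), the lowest value being in WT_PBS_914. Its paralog Atf6b differed by 0.17 (-0.031 to 0.36), and the KO libraries at 145 to 159.7 TPM overlapped the WT libraries at 128 to 149.5 TPM. All 4 intervals include 0.

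Of BiP and its helpers, Hspa5 showed the widest gap. Hspa5 stood at 1535, 1443 and 1167 TPM in the KO PBS libraries and 946, 1011 and 925 TPM in the WT PBS libraries, means 1382 ± 191 and 961 ± 45.3 (SD, n = 3 each). The KO libraries spread over 1167 to 1535 TPM, and even the lowest, KO_PBS_915, lay above the highest WT library. The log2 difference was 0.52 (SE 0.14, 95% interval 0.22 to 0.81) with an adjusted p of 0.0926 by limma. Dnajb9, a J-domain partner of BiP that also restrains IRE1, stood at 200.2, 183 and 166 TPM in KO and 155, 147 and 142 TPM in WT libraries, without overlap, a difference of 0.30 (SE 0.15, adjusted p 0.364, limma). Sdf2l1, a member of BiP chaperone complexes, stood at 198, 227 and 216 TPM in KO and 189, 194 and 180.1 TPM in WT libraries, again without overlap, a difference of 0.19 (SE 0.16). The other helpers had overlapping groups, apart from Sil1. Hyou1, a nucleotide exchange factor for BiP, differed by 0.20 and Manf, a secreted ER stress protein, by 0.14, while Dnajb11 and Dnajc3, further J-domain proteins, differed by -0.014 and -0.043. Sil1, the other exchange factor of BiP, was the single gene of the 40 whose KO libraries, at 27.6 to 32.0 TPM, all lay below the WT libraries, at 34.1 to 35.2 TPM (log2 difference -0.21, adjusted p 0.497, limma).

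GRP94 and both lectin chaperones had KO libraries above all WT libraries. Hsp90b1, which encodes GRP94, the HSP90 of the ER, stood at 1323, 1290.1 and 1326 TPM in KO and 1074, 1104 and 1029 TPM in WT libraries, a difference of 0.30 (SE 0.12, adjusted p 0.245, limma). Calr, a lectin chaperone that also buffers calcium, stood at 1733, 1641 and 1579 TPM in KO and 1372, 1323 and 1258 TPM in WT libraries, a difference of 0.33 (SE 0.12, adjusted p 0.204). Canx, its membrane-bound relative, stood at 747, 740.0 and 789 TPM in KO and 685, 641 and 589 TPM in WT libraries, a difference of 0.25 (SE 0.096, adjusted p 0.233). For each of the 3 genes the range within either group was smaller than the gap between the group means. Hsp90b1 shares 84 exon bases with the same-strand feature Gm15344, whose reads its count may hold in part.

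The disulfide isomerases formed the largest group, and 6 of its 10 genes had KO libraries above all WT libraries. P4hb, the classical protein disulfide isomerase, averaged 614 ± 18.7 TPM in KO and 495 ± 14.5 TPM in WT libraries (SD, n = 3 each), a log2 difference of 0.31 (SE 0.095). Pdia6 averaged 362 ± 7.87 TPM in KO and 289 ± 11.6 TPM in WT libraries (0.32, SE 0.11), and Pdia4 378 ± 17.7 TPM in KO and 309 ± 22.8 TPM in WT libraries (0.29, SE 0.13). The others without overlap were Txndc11, Pdia3 (0.18), which works with the lectin chaperones, and Fkbp2 (0.20), a proline isomerase. Txndc11, a thioredoxin-like protein, stood at 30.8, 28.2 and 29.3 TPM in KO and 22.0, 24.4 and 22.6 TPM in WT libraries. Its log2 difference of 0.34 (SE 0.086) came with an adjusted p of 0.0782 by limma, and it shares 75 exon bases with Snn on the opposite strand, which the counts may not separate. Creld2 differed by 0.15, the oxidases Ero1l and Ero1lb, which recharge the isomerases, by -0.12 and 0.043, and Txndc5 by -0.069, each with overlapping groups.

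In ER-associated degradation, which returns misfolded proteins to the cytosol for the proteasome, 8 of 9 genes had a positive difference and 2 had groups without overlap. Syvn1, the ubiquitin ligase also called HRD1, averaged 64.0 ± 1.96 TPM in KO and 53.3 ± 2.55 TPM in WT libraries (0.26, SE 0.11), and it shares 91 exon bases with Mrpl49 on the opposite strand. Derl1, a channel component, stood at 228, 234 and 227 TPM in KO and 213, 194 and 178 TPM in WT libraries (0.24, SE 0.073, adjusted p 0.144, limma). Herpud1, an ER stress-induced organiser of the HRD1 complex, stood at 266, 253 and 219.8 TPM in KO and 249, 261 and 208 TPM in WT libraries. Those groups overlapped, and the log2 difference was 0.043 (-0.31 to 0.40). Selenos differed by 0.28, Edem1, a lectin of the pathway, by 0.17, Derl2 by 0.074 and Sel1l, the partner of HRD1, by 0.049. Derl3 differed by 0.56 with an SE of 0.32, at a level of 4.52 ± 2.02 TPM in KO and 2.72 ± 1.23 TPM in WT libraries (SD, n = 3 each). Edem2, a mannosidase that starts glycoprotein degradation, was the 1 negative value, at -0.21.

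Of the 4 translocation genes, Sec61a1, the channel subunit, stood at 88.5, 92.1 and 91.7 TPM in KO and 80.0, 76.8 and 78.6 TPM in WT libraries, without overlap (0.21, SE 0.059, adjusted p 0.115, limma). Ssr1, a subunit of the translocon-associated TRAP complex, stood at 98.9, 97.6 and 89.6 TPM in KO and 82.3, 79.1 and 86.2 TPM in WT libraries, also without overlap (0.21, SE 0.089). Ssr2, its partner, differed by 0.012 and Sec61b, the small channel subunit, by -0.23. Wfs1 differed by -0.091.

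**Figure D2:**
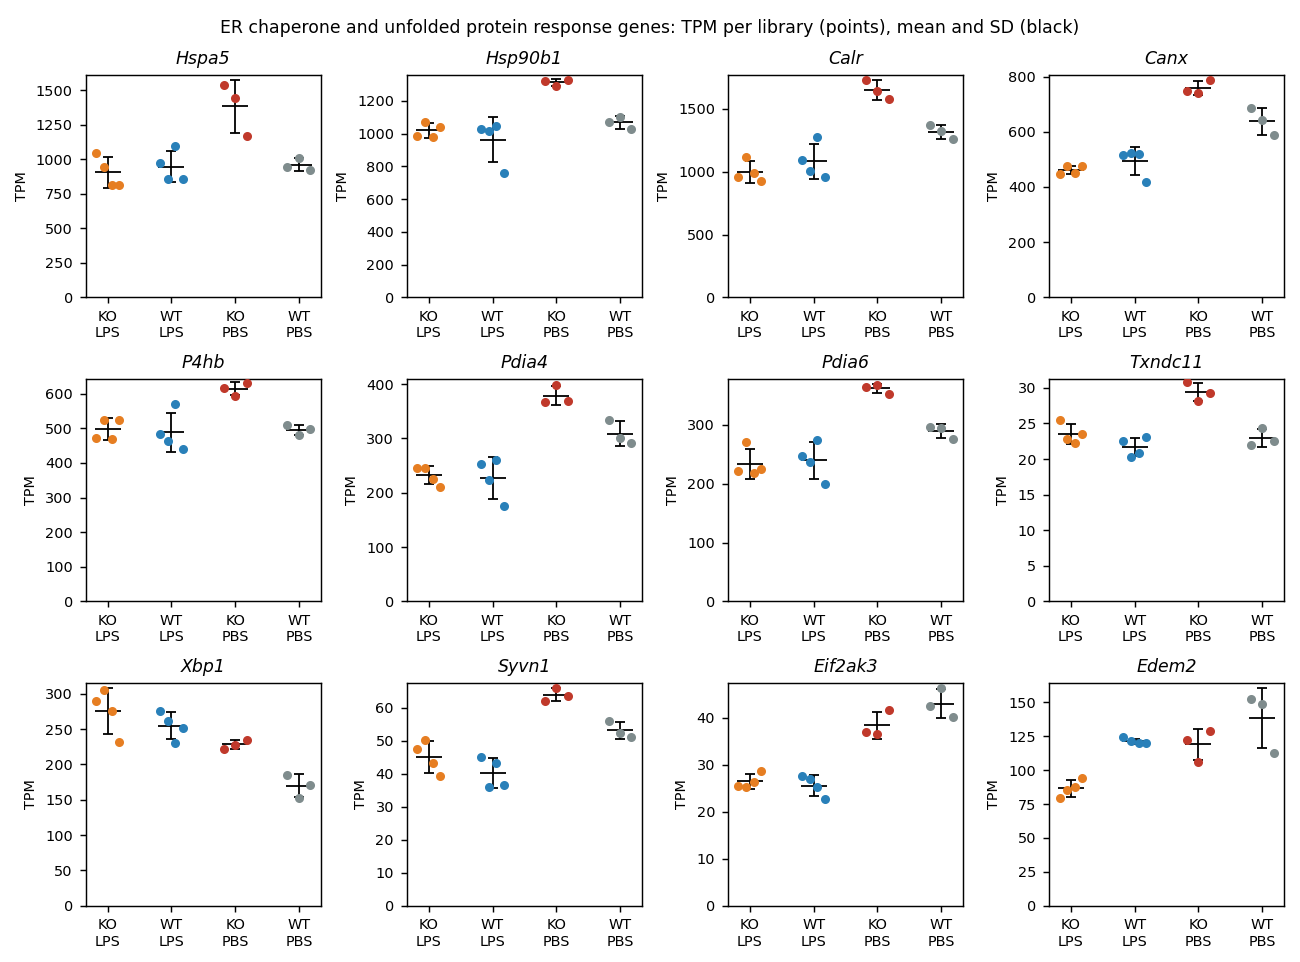
TPM of 12 genes in every library (points), with group mean and SD (black), for KO LPS, WT LPS, KO PBS and WT PBS, on axes that start at 0. The KO PBS points of Hspa5, Hsp90b1, Calr, Canx, P4hb, Pdia4, Pdia6, Txndc11, Xbp1 and Syvn1 all lie above the WT PBS points, while under LPS the genotypes overlap for every gene shown other than Edem2.

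Other transcripts differed between the same PBS libraries. Hspa5 ran in the order KO_PBS_911, KO_PBS_912, KO_PBS_915, and so did the summed TPM of 7 dissociation and immediate early genes, at 8575, 6881 and 5235 in these KO libraries, against 4397, 6965 and 5147 in WT_PBS_904, WT_PBS_913 and WT_PBS_914. The sum of 4 choroid plexus markers, from a secretory epithelium, was 28322, 25713 and 11770 TPM in the same KO libraries, against 23300.4, 19917 and 17886 TPM in the WT libraries. The part of both in the result was not tested, and none of these 11 genes was at 0 in any library. The 9 markers of B and plasma cells, which are rich in ER, summed to 44.9 to 61.3 TPM in KO and 60.0 to 72.4 TPM in WT libraries. The 4 endothelial markers summed to 235 to 517 TPM in KO and 443 to 677 TPM in WT libraries. Within that list Pecam1, at 30.9 to 62.7 TPM in KO and 70.1 to 106 TPM in WT libraries, and Kdr, at 16.2 to 26.8 TPM in KO and 31.1 to 33.8 TPM in WT libraries, did not overlap, none of the 4 was at 0 in any library, and their part in the result was not tested. The 12 pituitary markers, of which 1 was at 0 in all libraries, summed to 5.45 to 261 TPM in KO libraries and 202 to 91078 TPM in WT libraries. WT_PBS_914, where that sum was 91078 TPM, held the lowest WT PBS value in 24 of the 40 genes and the highest in 11. Without WT_PBS_914 the KO libraries lay above the WT libraries for 19 of 40 genes (17.5% of all genes) and below for 5 (22.4%), with a median log2 difference of 0.14.

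The count of called genes under PBS depended on the settings. Library weights called 7 genes, all higher in KO: Derl1, Hspa5, P4hb, Pdia6, Sec61a1, Txndc11 and Xbp1. Leaving out KO_LPS_4, the shallowest library, which enters only through the shared spread, called Xbp1. In the other alternatives 0 genes were called.

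Under LPS the same genes did not stand apart between the genotypes, and the degradation gene Edem2 was the 1 gene that passed the test. It stood at 79.5, 85.2, 87.3 and 94.5 TPM in KO LPS libraries and 124, 121, 120.1 and 119.8 TPM in WT LPS libraries. The WT libraries spanned 119.8 to 124 TPM, and every KO library lay below them. Edem2 fell in KO by 0.48 on the log2 scale (SE 0.096, adjusted p = 0.0467, limma). That made 0 genes higher and 1 lower among 40, where 0.256% and 0.24% of all genes tested were called higher and lower. The Edem2 call was kept in 8 of 26 alternatives, with adjusted p-values between 0.0132 and 0.56 and log2 differences between -0.58 and -0.43. It was lost when any 1 library was left out other than WT_PBS_914, and it was lost in the fit of the LPS libraries alone.

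At an unadjusted p under 0.05, 0 of 40 genes were higher and 5 lower in KO under LPS, against 7.72% and 3.94% of all genes tested and 9.86% and 8.98% of those that averaged 50 TPM or more. Besides Edem2 these were Dnajb11 (-0.36), Sdf2l1 (-0.34), Atf6 (-0.28) and Sel1l (-0.14). KO libraries lay above all WT libraries for 0 genes and below them for 3 (Edem2, Sel1l and Derl2), against 4.22% and 1.96% of all genes and 5.79% and 4.45% of those at 50 TPM or more. The log2 difference was positive for 19 of 40 genes, against 62.8% of all genes and 50.9% of those at 50 TPM or more. Its median was -0.030 over the 40 genes, 0.070 over all genes tested and 0.0052 over those at 50 TPM or more. After median-of-ratios scaling, which sets the libraries to a common median of gene ratios, these medians were -0.12, -0.0078 and -0.085.

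Hspa5 stood at 1047, 944, 816 and 811 TPM in KO LPS and 969, 859.6, 1094 and 857 TPM in WT LPS libraries, an overlap over most of both ranges, with a log2 difference of -0.064 (95% interval -0.32 to 0.19). Xbp1 stood at 289, 306, 276 and 231 TPM in KO and 276, 262, 231 and 251 TPM in WT libraries, with a difference of 0.11 (-0.091 to 0.31). Both intervals include 0. Hsp90b1 stood at 983, 1072, 981 and 1043 TPM in KO and 1027, 1015, 1049 and 758 TPM in WT libraries (0.095, -0.12 to 0.31), with WT_LPS_4 far below the other 3 WT libraries. Calr stood at 959, 1121, 988 and 924 TPM in KO and 1091, 1009.5, 1275 and 957 TPM in WT libraries (-0.11, -0.33 to 0.11). Canx stood at 449, 475, 450.4 and 475 TPM in KO and 516, 523, 519.7 and 416 TPM in WT libraries (-0.089, -0.27 to 0.091). In Canx, too, the lowest library was WT_LPS_4, which held the lowest WT LPS value in 28 of 40 genes. Without that library, KO libraries lay below WT libraries for 7 genes (3.89% of all genes) and above them for 0 (5.70%). WT_LPS_4 was singled out by its low values in these same genes, which favours a higher count below. Leaving out KO_LPS_2 gave 7 below (2.69%) and 0 above (9.57%) as well, and leaving out any other LPS library gave 3 or 4 below.

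The sensors overlapped between the genotypes under LPS as well. Ern1 stood at 25.6, 19.8, 28.0 and 23.8 TPM in KO and 26.5, 25.2, 22.5 and 21.6 TPM in WT libraries. Eif2ak3 stood at 25.6, 25.3, 26.3 and 28.6 TPM in KO and 27.6, 26.9, 25.3 and 22.6 TPM in WT libraries. Atf6 stood at 42.9, 55.3, 45.9 and 48.0 TPM in KO and 52.8, 64.7, 59.4 and 56.9 TPM in WT libraries, where 1 KO library, KO_LPS_2, lay within the WT range. The corresponding log2 differences were 0.016, 0.049 and -0.28, with adjusted p-values of 0.978, 0.868 and 0.275 by limma.

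Of the helpers and degradation genes followed in every library, Dnajb9 stood at 167, 107, 115 and 141 TPM in KO and 124, 129.6, 101 and 101 TPM in WT LPS libraries (0.20, SE 0.13). Sdf2l1 stood at 123, 167, 132 and 126 TPM in KO and 179.7, 146, 231 and 147 TPM in WT libraries (-0.34, SE 0.14, adjusted p 0.352, limma), with 1 WT library, WT_LPS_3, far above the rest. Both genes overlapped between the genotypes. Herpud1 stood at 297, 196, 197 and 202 TPM in KO and 208, 222, 284 and 248 TPM in WT libraries (-0.12, SE 0.14), and KO_LPS_1 and WT_LPS_3 stood highest. Txndc11, which had the second smallest p under PBS, stood at 25.5, 22.8, 22.2 and 23.5 TPM in KO and 22.5, 20.3, 20.9 and 23.0 TPM in WT libraries (0.11, SE 0.075), and its groups overlapped.

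Averaged over both treatments with equal weight, 2 genes passed the test by limma, 1 in each direction, against 3.03% of all genes called higher and 0.913% lower. Of the genes that averaged 50 TPM or more, 7.61% were called higher and 1.76% lower. Edem2 fell by 0.34 on the log2 scale (adjusted p = 0.02) and Txndc11 rose by 0.23 (adjusted p = 0.0439). The Edem2 call was kept in 21 of 24 alternatives and the Txndc11 call in 8 of 24, and leaving out KO_PBS_912, WT_PBS_904 or WT_PBS_913 ended both. At an unadjusted p under 0.05, 10 of 40 genes were higher and 3 lower in KO, against 11.8% and 5.06% of all genes tested. Among the genes at 50 TPM or more these shares were 20.2% and 8.11%.

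**Figure D3:**
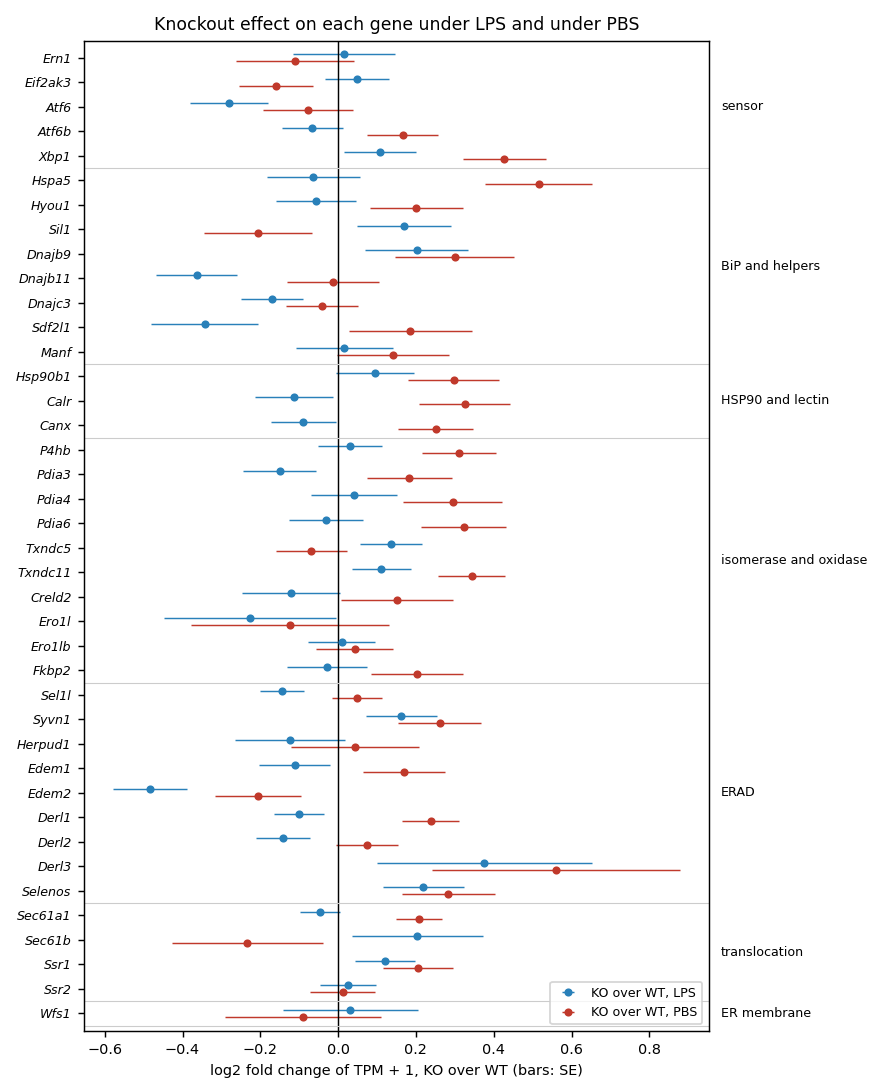
Log2 fold change of TPM + 1, KO over WT, for each of the 40 genes under LPS (blue) and under PBS (red), grouped by role, with bars for the SE. Red points lie right of 0 for 3 of 3 GRP94 and lectin chaperone genes, 8 of 10 isomerase and oxidase genes and 5 of 8 BiP and helper genes, with Hspa5 at 0.52 and Xbp1 at 0.43, while the blue points scatter around 0 and Edem2 lies lowest at -0.48.

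Whether the KO difference itself depended on treatment was tested with the interaction of genotype and treatment. By limma 0 of the 40 genes and 0 (0%) of all genes tested passed, and voom called 0 of the 40. At an unadjusted p under 0.05, 12 of the 40 had a lower KO difference under LPS than under PBS and 0 a higher one, against 3.59% and 5.91% of all genes tested and 9.80% and 2.49% of those that averaged 50 TPM or more. The interaction was negative for 33 of 40 genes, against 44.1% of all genes and 64.5% of those at 50 TPM or more. Its median was -0.21 over the 40 genes, 0.048 over all genes and -0.074 over those that averaged 50 TPM or more. The smallest adjusted p in the set was 0.411, for Derl1, with an interaction of -0.34 (SE 0.097). Hspa5 had the most negative value, -0.58 (SE 0.18, 95% interval -0.97 to -0.19, adjusted p 0.435), which sets a KO difference of -0.064 under LPS against 0.52 under PBS. Sdf2l1 (-0.53), Calr (-0.44), Pdia6 (-0.35), Dnajb11 (-0.35) and Canx (-0.34) came next in the same direction. Since PBS libraries carried male and LPS libraries female transcripts, a dependence on treatment cannot be told apart from one on sex. The log2 KO difference of Rheb itself was -0.42 under LPS and -0.79 under PBS, and its part in the interaction was not tested.

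LPS to PBS differences were larger, and in KO mice nearly the whole set lay lower after LPS. In KO, 32 of 40 genes fell and 0 rose by limma, where 26.9% of all genes tested were called lower and 7.82% higher, and 43.6% and 13.7% of those that averaged 50 TPM or more. The median was -0.46 over the 40 genes, -0.22 over all genes and -0.22 over those at 50 TPM or more. In WT, 20 genes fell and 1 rose, where 34.1% and 7.95% of all genes and 36.3% and 16.4% of those at 50 TPM or more were called. The medians in WT were -0.25 over the 40 genes, -0.28 over all genes and -0.16 over those at 50 TPM or more. The calls of KO and WT overlapped in 19 genes, which are 19 of the 32 called in KO and 19 of the 21 called in WT, and 6 genes were called in neither. LPS libraries lay below all PBS libraries for 31 genes and above them for 1 in KO (31.3% and 9.52% of all genes, 48.9% and 15.7% of those at 50 TPM or more), and for 18 and 2 genes in WT (37.4% and 8.45%, and 35.9% and 16.4%). Median-of-ratios scaling moved the median of all genes to 0.0015 in KO and 0.0079 in WT. On that scale 12 genes fell and 2, Xbp1 and Sec61b, rose in KO (10.3% and 12.4% of all genes), with a median of -0.20 over the 40 genes. In WT 2 fell and 5, Atf6, Xbp1, Dnajb11, Ero1l and Derl2, rose (13.2% and 16.1%), with a median of 0.083. Of the genes at 50 TPM or more, 18.4% fell and 24.1% rose in KO on that scale, with a median of 0.039. In WT 8.6% of them fell and 36.1% rose, with a median of 0.17.

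Sec61a1, the large subunit of the translocation channel, and both lectin chaperones fell in KO on both scales. Sec61a1 stood at 62.1, 64.2, 64.0 and 62.7 TPM in KO LPS and 88.5, 92.1 and 91.7 TPM in KO PBS libraries, a wide gap beside the spread within each group, and fell by 0.51 on the log2 scale (adjusted p = 3.61e-05, limma), or by 0.25 after median-of-ratios scaling. Canx stood at 449, 475, 450.4 and 475 TPM in KO LPS and 747, 740.0 and 789 TPM in KO PBS libraries and fell by 0.71 (adjusted p = 0.000104), or by 0.45. Calr stood at 959, 1121, 988 and 924 TPM in KO LPS and 1733, 1641 and 1579 TPM in KO PBS libraries and fell by 0.73 (adjusted p = 0.000328), or by 0.46. None of the LPS values of these genes reached a PBS value in KO. Sec61b, the small channel subunit, had a positive difference of 0.39 as deposited (adjusted p 0.117, limma) and rose by 0.65 after median-of-ratios scaling (adjusted p = 0.0362).

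Of the 9 degradation genes, 7 fell in KO as deposited and 3 after median-of-ratios scaling, and of BiP and its 7 helpers all 8 fell as deposited and 1, Dnajc3, after that scaling. Sel1l stood at 75.1, 73.9, 75.2 and 77.0 TPM in KO LPS and 104, 108 and 103 TPM in KO PBS libraries and fell by 0.47 (adjusted p = 0.000106, limma), or by 0.21 after median-of-ratios scaling. Derl1 stood at 161, 158, 155 and 167 TPM in KO LPS and 228, 234 and 227 TPM in KO PBS libraries and fell by 0.52 (adjusted p = 0.000145), or by 0.25. Dnajc3, which encodes an inhibitor of PERK and BiP co-chaperone, stood at 120.1, 134, 119 and 107 TPM in KO LPS and 177, 192 and 182 TPM in KO PBS libraries and fell by 0.61 (adjusted p = 0.000224), or by 0.35. Each of these genes was called on both scales, without overlap of the groups. Ssr1 stood at 58.2, 64.9, 66.8 and 65.8 TPM in KO LPS and 98.9, 97.6 and 89.6 TPM in KO PBS libraries and fell by 0.57 (adjusted p = 0.000283), or by 0.31. Fkbp2 fell by 0.74, Pdia4 by 0.70, Pdia6 by 0.63, Edem1 by 0.62 and Eif2ak3 by 0.52, and all 5 were also called after median-of-ratios scaling. Hspa5 fell by 0.61 in KO as deposited (adjusted p = 0.00296), but after median-of-ratios scaling its difference was -0.34 with an adjusted p of 0.106. Hsp90b1, Sdf2l1, Manf and Dnajb9 were likewise called as deposited and not after that scaling.

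In WT, 20 genes fell as deposited and 2 of them also after median-of-ratios scaling. Eif2ak3 stood at 27.6, 26.9, 25.3 and 22.6 TPM in WT LPS and 42.6, 46.3 and 40.2 TPM in WT PBS libraries and fell by 0.73 on the log2 scale (adjusted p = 0.000107, limma), or by 0.40 after median-of-ratios scaling. Sil1 averaged 18.9 ± 3.69 TPM in WT LPS (n = 4) and 34.8 ± 0.631 TPM in WT PBS libraries (n = 3) and fell by 0.86 (adjusted p = 0.000392), or by 0.54. No other gene of the set fell on both scales in WT. Calr fell by 0.29, Pdia6 by 0.28, Ero1lb by 0.24, Sel1l by 0.28, Sec61a1 by 0.26 and Ssr2 by 0.30 as deposited, and each of these 6 turned to a positive difference of 0.032 to 0.081 after median-of-ratios scaling. Hspa5 stood at 969, 859.6, 1094 and 857 TPM in WT LPS and 946, 1011 and 925 TPM in WT PBS libraries, overlapping, with a difference of -0.030 (-0.31 to 0.25).

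Xbp1 was the 1 gene of the set that rose as deposited, in WT. It stood at 276, 262, 231 and 251 TPM in WT LPS libraries and 186, 153 and 172 TPM in WT PBS libraries, and every LPS library lay above every PBS library. It rose by 0.58 on the log2 scale (SE 0.099, adjusted p = 0.000828, limma), or by 0.92 after median-of-ratios scaling, and the call was kept in 25 of 25 alternatives. In KO it stood at 289, 306, 276 and 231 TPM in LPS and 223, 228 and 234 TPM in PBS libraries, where KO_LPS_4 at 231 TPM reached into the PBS range. That difference of 0.26 missed the threshold as deposited (adjusted p 0.0558) and passed after median-of-ratios scaling (0.53, adjusted p 0.00406). Ero1l, the oxidase that hypoxia also induces, had LPS libraries above all PBS libraries in both genotypes, with 26.1 to 39.8 TPM in KO LPS and 24.1 to 25.5 TPM in KO PBS, and 32.0 to 70.9 TPM in WT LPS and 24.8 to 31.9 TPM in WT PBS. Its differences were 0.41 in KO and 0.51 in WT (adjusted p 0.203 and 0.101, limma), and the WT value passed after median-of-ratios scaling at 0.84. In WT the high value was WT_LPS_3 alone, at 70.9 TPM. The other WT LPS libraries, at 32.0 to 32.3 TPM, barely exceeded WT_PBS_914 at 31.9 TPM.

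**Figure D4:**
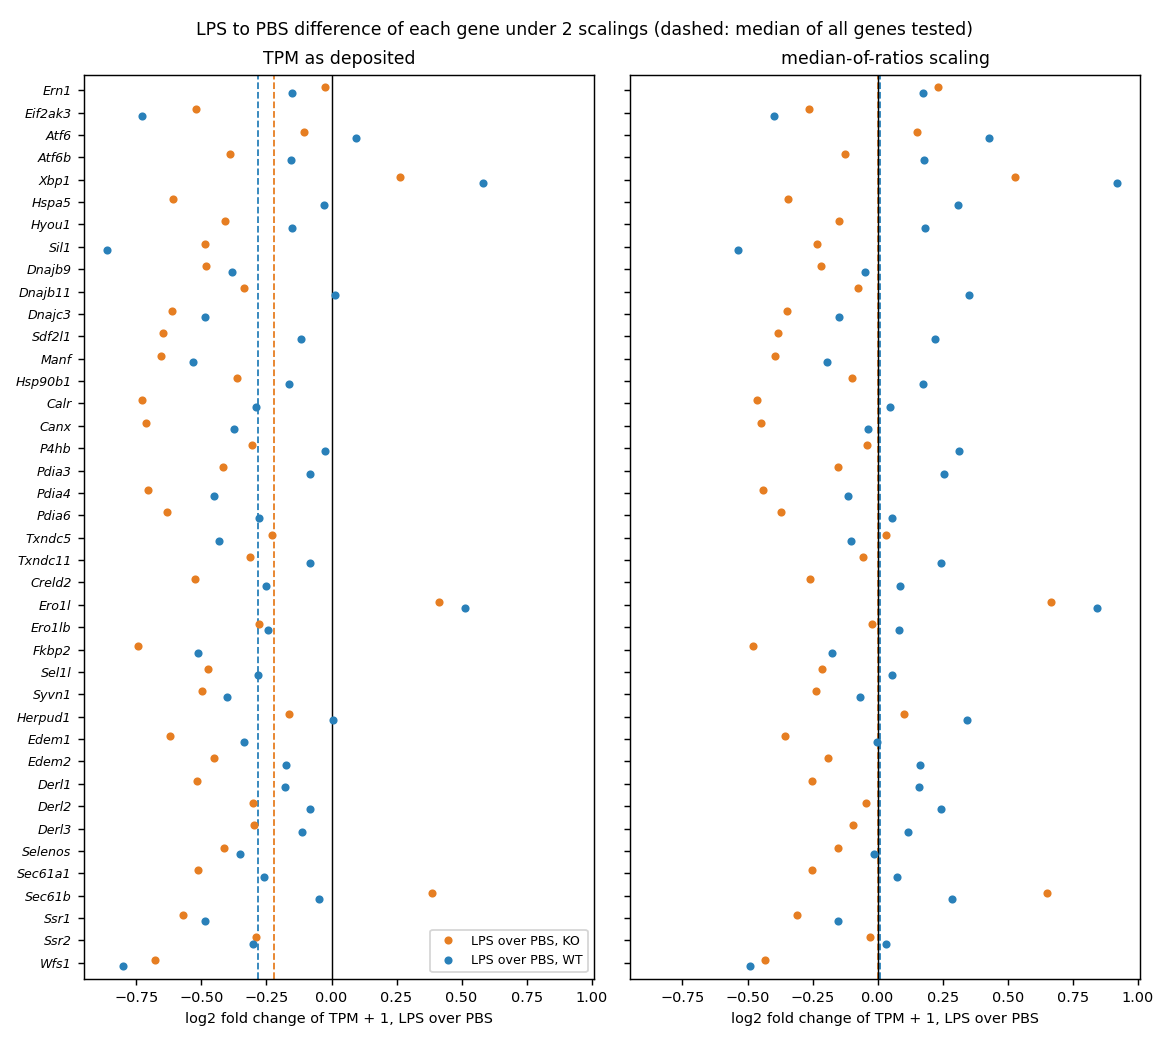
Log2 fold change of TPM + 1, LPS over PBS, for each gene in KO (orange) and WT (blue), with the values as deposited on the left and after median-of-ratios scaling on the right, and the median of all genes tested as dashed lines. As deposited, the KO points centre at -0.46, left of the dashed line at -0.22, and after rescaling Xbp1 stands at 0.53 in KO and 0.92 in WT.

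Cell type markers moved with treatment too. The 7 microglial markers summed to 11726 to 16609 TPM in KO LPS and 24849 to 26466 TPM in KO PBS libraries, and to 15401 to 18975 TPM in WT LPS and 22489 to 28914 TPM in WT PBS libraries. The 5 neutrophil markers summed to 10145 to 22145 TPM in KO LPS and 4487 to 7113 TPM in KO PBS libraries, while the WT LPS libraries, at 8265 to 19505 TPM, overlapped the WT PBS libraries, at 5002 to 21117 TPM. The 4 monocyte markers summed to 341 to 499 TPM in KO LPS and 53.0 to 87.5 TPM in KO PBS libraries, and to 297 to 1169 TPM in WT LPS and 70.3 to 208 TPM in WT PBS libraries, without overlap in either genotype. The 4 choroid plexus markers summed to 4303 to 15648 TPM in KO LPS and 11770 to 28322 TPM in KO PBS libraries, which overlapped, and to 2469.6 to 9535 TPM in WT LPS and 17886 to 23300.4 TPM in WT PBS libraries. None of these markers was at 0 in any library, and their part in the LPS to PBS values was not tested.

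The wider ER machinery was read from a further list of 66 genes, all in the table, which covers the eIF2alpha and ATF4 arm, the processing of ATF6 and XBP1, glycosylation, degradation and signal peptide handling. Under PBS 1 of 66 was called, higher in KO, where 0.796% of all genes were and 1.99% of those at 50 TPM or more. At an unadjusted p under 0.05, 10 were higher and 1 lower (9.55% and 6.13% of all genes, 19.9% and 5.15% of that class). KO libraries lay above all WT libraries for 20 and below them for 6 (14.9% and 10.9%, and 30.4% and 8.34%). The log2 difference was positive for 47 (49.1% and 63.4%). Mogs, the glucosidase that trims the first glucose of N-glycans, stood at 98.6, 92.8 and 102 TPM in KO and 61.5, 56.7 and 61.6 TPM in WT libraries. It rose by 0.70 on the log2 scale (SE 0.10, adjusted p = 0.00973, limma), and the call was lost without KO_PBS_911 or KO_PBS_912. Ddost, a subunit of the oligosaccharyltransferase, stood at 329, 335 and 334 TPM in KO and 268, 268 and 245 TPM in WT libraries, without overlap (0.35, adjusted p 0.0912). Atf4, the transcription factor below PERK, stood at 264, 257 and 222 TPM in KO and 160.2, 209 and 164 TPM in WT libraries (0.48, SE 0.17, adjusted p 0.205). Its groups did not overlap. Of the 7 genes of the eIF2alpha and ATF4 arm, 0 were called and 5 had a positive difference. Ppp1r15a, the stress-induced phosphatase subunit GADD34, had the largest difference of the 66, with 331, 225 and 155 TPM in KO and 95.7, 176 and 123 TPM in WT libraries (0.82, SE 0.35, adjusted p 0.29), and its groups overlapped. Among targets of ATF4, chosen like Ppp1r15a after their values were seen, Ddit3 (CHOP) stood at 26.4, 28.8 and 27.8 TPM in KO and 25.7, 24.3 and 21.1 TPM in WT libraries, and Trib3 at 0.964, 1.52 and 1.01 TPM in KO and 2.38, 2.12 and 2.14 TPM in WT libraries. The differences were 0.22 and -0.58, with adjusted p-values of 0.672 and 0.393.

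Under LPS 0 of the 66 were called by limma. At an unadjusted p under 0.05, 2 were higher and 4 lower (7.72% and 3.94% of all genes, 9.86% and 8.98% of those at 50 TPM or more). Rpn1 (-0.19) and Mbtps1 (0.18), the protease that cuts ATF6, had the smallest p in each direction. Mogs stood at 66.8, 60.4, 60.7 and 63.1 TPM in KO LPS and 54.8, 50.9, 69.4 and 54.4 TPM in WT LPS libraries, overlapping. Averaged over treatments Mogs rose by 0.42 (adjusted p = 0.00474). Set against PBS, after LPS 36 of 66 fell and 2 rose in KO (26.9% and 7.82% of all genes), and 33 fell and 3 rose in WT (34.1% and 7.95%). Of the genes at 50 TPM or more, 43.6% fell and 13.7% rose in KO, and 36.3% fell and 16.4% rose in WT. Rtcb, the ligase that joins spliced Xbp1, rose in both, by 0.55 in KO and 0.40 in WT, and Ppp1r15b, a phosphatase subunit that reverses PERK signalling, rose by 0.40 in WT. Sec61g, a small subunit of the Sec61 channel, rose by 0.55 in KO, and Ube2j2, a degradation conjugating enzyme, by 0.31 in WT. Spcs2, a signal peptidase subunit, fell by 0.84 in KO and by 0.67 in WT, and Rpn1, of the oligosaccharyltransferase, by 0.76 in KO and by 0.52 in WT. After median-of-ratios scaling 21 of the 66 were called in KO, where 10.3% of all genes fell and 12.4% rose, and 14 in WT, where 13.2% fell and 16.1% rose. On that scale 18.4% of the genes at 50 TPM or more fell and 24.1% rose in KO, and 8.6% fell and 36.1% rose in WT. The interaction called 0 of 66 by limma, with 9 lower and 1 higher at an unadjusted p under 0.05 (3.59% and 5.91% of all genes). Among the genes at 50 TPM or more these shares were 9.8% and 2.49%.

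Set beside the promoter sequences, the genes with ERSE had a median log2 KO difference under PBS of 0.28 over 10 genes, against 0.17 over the 23 genes whose windows held none. The difference was positive for 9 of 10 genes with ERSE and for 15 of 23 without, and KO libraries lay above all WT libraries for 6 of 10 and 9 of 23. Under LPS the medians were -0.048 with ERSE and 0.016 without. For LPS against PBS they were -0.57 with ERSE and -0.42 without in KO, and -0.27 with ERSE and -0.16 without in WT. The highest genes with ERSE under PBS were Derl3 (0.56), whose groups overlapped, and Hspa5 (0.52), and Dnajc3 (-0.043) was the 1 below 0. Of the ERSE-II and UPRE genes, Herpud1 differed by 0.043, Dnajb11 by -0.014, Txndc5 by -0.069 and Txndc11 by 0.34. Xbp1, without a match in its window, had a larger value than 8 of the 10 genes with ERSE. These medians are descriptions and were not tested.

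**Figure D5:**
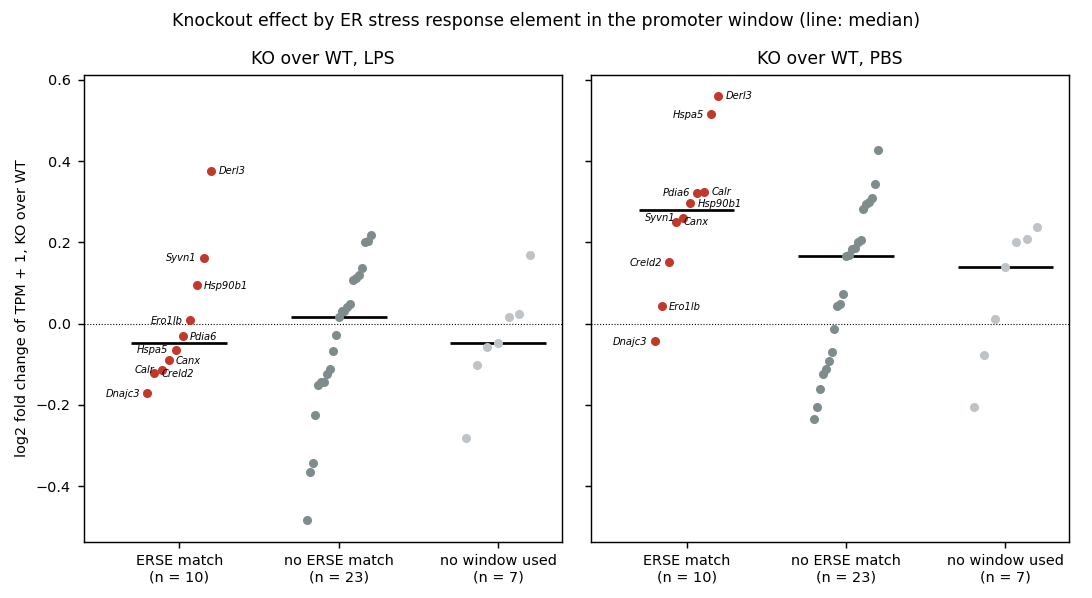
Log2 fold change of TPM + 1, KO over WT, under LPS (left) and PBS (right), for genes with an ERSE match in the promoter window (red, named), genes without one (grey) and genes with no window used (light grey), with lines at the medians. Under PBS the red points centre at 0.28 and the grey at 0.17, and under LPS at -0.048 and 0.016.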

How the data were processed

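Per the labels' protocols, total RNA was extracted with TRIZOL and made into libraries with a universal Illumina kit whose strand is not stated. The tools named are STAR 2.7.10b, featureCounts 2.0.1, FastQC 0.11.9 and cutadapt 4.4, with the human build hg38, per the submitters' processing notes, although the table lists mouse gene IDs. Values were deposited as TPM, which sum to 1000000 in each library. Names came from the reference table for 41588 of 41739 IDs. Reads were recovered from TPM times exon-union length, with 98.4% to 98.6% of values whole within 0.02 reads, and totals range from 8.00 M to 32.3 M (M, 1000000 reads), so KO_LPS_4 is the least precise. The log2 of TPM plus 1 was fitted with limma 3.58.1 in R 4.3.3, as 4 group means with an intensity trend. Testing was limited to the 18724 genes that reached 1 TPM in 3 or more libraries, with Benjamini-Hochberg adjustment over all of them, and calls were made at adjusted p-values under 0.05. "Rose" and "fell" are used of called genes. Log2 differences understate changes of low genes, and differences and medians are on this scale throughout. The fit was tested on simulated data.

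Whether each library is its own animal is not in the labels, and the p-values then measure only the spread between libraries, which may be technical. The comparisons share libraries: both LPS to PBS differences and both KO differences use the same 4 groups. The 40 genes, the 66 further genes and the alternatives were chosen with earlier results of these data known. Values in every library are given for 10 genes always named and, among called genes, for the 7 with the smallest p in each direction; Edem2, Ppp1r15a, Ddit3 and Trib3 are given beside them, chosen after their values were seen. Of the 66 further genes, up to 3 called in each direction with the smallest p are named, or else the 2 with the smallest p. Ddost and Atf4 are given under PBS outside this rule, with their values known. Ddit3 stands on 2 IDs, 1 of them at 0, and the other was used. Counts of exon bases shared with other genes come from GENCODE M21. Promoter windows and their coordinates come from RefSeq on GRCm38.p6; Ero1l and Ero1lb were matched as Ero1a and Ero1b. Alternatives were a pseudocount of 0.1 or 5, a filter at 5 TPM or none, median-of-ratios scaling, rescaling without mitochondrial, ribosomal protein, haemoglobin, pituitary hormone and short genes, no trend, library weights, the compared groups alone, a replicate block, each library left out, and both pituitary-rich libraries left out. Voom on recovered reads was chosen after seeing the data.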

Additional observations from a re-analysis of the deposited data

Results flagged for a closer look

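Among the 40 genes and the 2 LPS groups of 4 libraries, 80 sets of values were checked for a single library far from the others, and 7 had one, where chance gives about 1 in 20. In KO_LPS_2, Dnajb11 stood at 119 TPM, the highest of its group, with the next library at 101 TPM, and Pdia6 at 272 TPM, with the next at 224 TPM. In WT_LPS_4, Hsp90b1 stood at 758 TPM, the lowest of its group, with the next at 1015 TPM, and Canx at 416 TPM, with the next at 516 TPM. Ero1l in WT_LPS_3 stood at 70.9 TPM, with the next library at 32.3 TPM. Herpud1 in KO_LPS_1 stood at 297 TPM, with the next at 202 TPM, and Atf6b in KO_LPS_4, the shallowest library, at 127 TPM, with the next at 114 TPM. WT_LPS_4 also held the largest share of Gm23935, at 15.4% of its TPM total.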

How the results depend on the processing

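Over the alternatives, the number of the 40 genes called under PBS was 7 with library weights, 0 to 1 when 1 library was left out, and 0 otherwise. Under LPS the 1 call became 0 with no filter, with no trend, in the compared groups alone, with a replicate block, and without WT_PBS_914 and KO_LPS_3 together, and 0 to 1 when 1 library was left out. The 2 calls averaged over treatments became 1 with median-of-ratios scaling, with no trend, without both pituitary-rich libraries and with voom, 4 when rescaled without abundant gene classes, 3 with the filter at 5 TPM or library weights, and 0 to 2 when 1 library was left out. For LPS against PBS in WT the 21 calls became 7 with median-of-ratios scaling and 11 with voom, and 15 to 21 when 1 library was left out. In KO the 32 calls became 14 with median-of-ratios scaling, 19 when rescaled and 15 with voom, and 24 to 33 when 1 library was left out. The interaction stayed at 0 in each alternative run.

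Of the 66 further ER genes, the 1 call under PBS became 5 with library weights, 0 without both pituitary-rich libraries and 0 to 2 when 1 library was left out. The 1 averaged call became 2 when rescaled and 1 to 2 when 1 library was left out. After median-of-ratios scaling, 14 were called for LPS against PBS in WT, where 36 were called as deposited, and 21 in KO, where 38 were. For LPS against PBS in WT, the differences of Calr (0.048), Pdia6 (0.057), Ero1lb (0.081), Sel1l (0.054), Sec61a1 (0.075) and Ssr2 (0.032) were positive after median-of-ratios scaling and negative as deposited. That scaling moves the median of all genes by construction, and the cause of the other changes was not tested. The replicate block used numbers that the LPS libraries share. Same-numbered KO and WT libraries had correlations of 0.06, -0.06, -0.09 and -0.03 over their deviations from the group means. The labels give the numbers no meaning, and these correlations alone cannot settle whether the numbers pair libraries. With the block 0 of 40 genes were called. Groups of 3 and 4 libraries, and the 8.00 M reads of KO_LPS_4, limit what can pass.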
